A study of Arabidopsis thaliana with 12 samples.

Results

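The 8 genes of chlorophyll breakdown described here in Arabidopsis thaliana are CLH1, SGR1, SGR2, NYC1, PPH, PAO, RCCR and HCAR. They were chosen by their place in the pathway, with earlier results of these data known. All 8 of 8 have a row among the 20233 genes of the deposited expression table. The table covers 12 libraries of RNA from seedlings 2 to 3 weeks old, with leaf given as the tissue, collected 6 h after infiltration under vacuum. There are 4 groups of 3 libraries: mock, valinomycin at 10 µM, Pseudomonas syringae pv. tomato DC3000 (called DC3000 below), and the pair of agents together. Valinomycin is an antibiotic that carries potassium ions through membranes, and DC3000 is a leaf pathogen that makes coronatine, a toxin that mimics the hormone jasmonate. The labels give no ecotype, genotype, bacterial dose or mock solution, and infiltration is shared by all 4 groups. They do not say whether replicates are separate plants or cultures, and the p-values below cover no more than the spread among these libraries, which may be technical.

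Green tissue dismantles chlorophyll in the chloroplast through a fixed series of enzymes, which runs during leaf senescence and in stressed leaves. Chlorophyll b is first turned into chlorophyll a by NYC1 and then HCAR, magnesium is taken out by the SGR proteins, and PPH cuts off the phytol tail. PAO then opens the ring, and RCCR reduces the red product to a colourless precursor that is exported to the vacuole. CLH1 is a chlorophyllase, which cuts phytol from chlorophyll itself, and an older name of the gene is coronatine-induced protein. Plants without PAO or RCCR build up light-activated intermediates and form lesions, which gave these genes their other names, ACD1 and ACD2 (accelerated cell death).

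The sequences just upstream of 4 of the genes are shown because the genes differed in how they responded, and because NAC and MYC transcription factors, described further on, are known to act on this pathway. Each is the 300 bases before the annotated gene start in the RefSeq annotation of build TAIR10.1, written 5′ to 3′ on the gene's strand. Capitals mark CATGTG, a sequence that the stress-induced NAC factors ANAC019, ANAC055 and ANAC072 are known to bind, or CACGTG, the G-box, on either strand (CATGTG reads CACATG on the other). CLH1 is shown for the largest change, NYC1 and PPH because they were higher in all 3 treated groups, and SGR2 because it held both motifs. These 4 are also the windows that held CATGTG, so motif and response are not matched independently here. PAO was higher in all 3 treated groups too, and its window held neither motif. The windows of SGR1 and RCCR held neither as well.
CLH1, chr1:6805093-6805392, minus strand: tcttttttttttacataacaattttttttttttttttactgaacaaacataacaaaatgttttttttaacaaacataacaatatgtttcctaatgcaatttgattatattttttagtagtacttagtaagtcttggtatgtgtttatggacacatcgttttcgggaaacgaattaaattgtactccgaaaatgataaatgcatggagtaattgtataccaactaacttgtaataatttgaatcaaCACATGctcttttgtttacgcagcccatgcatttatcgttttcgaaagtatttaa
NYC1, chr4:7687007-7687306, minus strand: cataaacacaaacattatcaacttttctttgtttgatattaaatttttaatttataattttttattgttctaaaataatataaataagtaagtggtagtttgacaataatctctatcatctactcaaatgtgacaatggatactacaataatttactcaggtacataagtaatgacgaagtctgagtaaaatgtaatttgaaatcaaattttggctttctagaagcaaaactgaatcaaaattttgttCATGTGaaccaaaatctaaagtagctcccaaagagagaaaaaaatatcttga
PPH, chr5:4454814-4455113, minus strand: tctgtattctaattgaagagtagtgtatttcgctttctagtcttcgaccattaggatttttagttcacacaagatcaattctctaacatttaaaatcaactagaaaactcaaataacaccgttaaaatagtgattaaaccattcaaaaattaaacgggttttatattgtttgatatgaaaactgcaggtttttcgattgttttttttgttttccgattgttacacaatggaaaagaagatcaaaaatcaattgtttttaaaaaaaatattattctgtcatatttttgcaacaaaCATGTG
SGR2, chr4:7155850-7156149, plus strand: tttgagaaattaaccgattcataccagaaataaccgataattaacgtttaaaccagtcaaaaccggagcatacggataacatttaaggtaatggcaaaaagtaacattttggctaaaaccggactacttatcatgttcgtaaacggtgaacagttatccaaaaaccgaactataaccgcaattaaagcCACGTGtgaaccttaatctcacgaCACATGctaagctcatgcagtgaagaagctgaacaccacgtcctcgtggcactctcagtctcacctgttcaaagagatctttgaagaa

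CATGTG was found in 4 of the 7 windows searched (CLH1, NYC1, PPH and SGR2) and in 13.1% of the 27443 windows of protein-coding genes. The match lay 55 bases upstream of the start in CLH1, 52 in NYC1, 6 in PPH and 88 in SGR2. CACGTG was found in 1 of 7, 112 bases upstream of SGR2, against 7.09% of all windows. TTGACN, the core of the W-box bound by WRKY factors, was in 2 of 7 (SGR2 and NYC1) against 50.3%, and the evening element AAAATATCT in NYC1 alone, 12 bases upstream, against 2.79%. ACGTGTC, an abscisic acid response element whose first 5 bases can overlap a G-box, was in 0 of 7 against 4.05%. Both strands were searched. The windows of SGR1 and PAO run into the neighbouring genes AT4G22930 and AT3G44870 and are not shown. That of RCCR, which runs into no other gene, is not shown either. A match is a run of letters and no evidence of binding.

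The values are taken as FPKM, a read density scaled to transcript length and library size, which is a unit inferred from the table because none is stated. Library totals ran from 1057472 to 1350272. Of the leaf mesophyll markers, 6 of 6 had values, with a summed level of 17943 to 19228 FPKM for mock, 10015.7 to 11907 for valinomycin, 10255.8 to 11833 for DC3000 and 7246 to 8115 for the pair of agents. Of 7 root markers 3 had values, with a sum of at most 18.6 FPKM in any library. The sums of guard cell markers and of phloem and xylem markers reached 36.3 and 172 FPKM. Markers of meristem and epidermis (4 of 4 with values) summed to 179.6 to 294 FPKM for mock, 114 to 149 for valinomycin, 85.0 to 121 for DC3000 and 53.1 to 66.5 for the pair of agents. The treated ranges of this sum lie below mock, as those of the mesophyll sum do. In bulk samples, fewer cells of a type and less RNA per cell cannot be told apart, and the part that the lower sums of these 2 marker lists have in the results below was not tested. Differences are log2 fold changes on the scale log2(FPKM + 1), which understates changes of low genes, with standard errors and adjusted p-values from limma over 18048 tested genes. Genes are called at an adjusted p under 0.05. Of the 4 meristem and epidermis markers 1, 2 and 2 were lower than mock with valinomycin, DC3000 and both, and 0, 1 and 0 higher. Of the 6 mesophyll markers 5, 4 and 5 were lower and 0 higher. Among all tested genes 13.8%, 17.2% and 23.1% were called lower and 38.5%, 31.6% and 37.2% higher. The first sum thus does not stand for each of its members. The median change of all tested genes was itself 0.27 for valinomycin, 0.18 for DC3000 and 0.17 for both against mock. Of all calls, 73.6%, 64.8% and 61.7% were higher in the same order, and 49.3%, 47.7% and 49.8% after libraries were rescaled by the median of their gene ratios (median-of-ratios), which brings those medians near 0. Scaling to the total of nuclear genes gave 54.5% for DC3000.

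With DC3000 alone, 7 of the 8 genes rose above mock, and HCAR was the one not called. Among all tested genes 31.6% were called higher in that comparison. The median change of the 8 was 1.41 on the log2 scale, against 0.18 for all genes. With valinomycin alone, 5 of 8 rose (NYC1, PPH, PAO, RCCR and SGR2), where 38.5% of all genes were called higher, and their median was 0.59 against 0.27. With both agents, 5 of 8 rose (CLH1, NYC1, PPH, PAO and SGR1), where 37.2% of all genes were called higher, with a median of 1.33 against 0.17. In no comparison with mock was any of the 8 called lower, against 13.8%, 17.2% and 23.1% of all genes for valinomycin, DC3000 and both. Without mock replicate 3, or after median-of-ratios rescaling, the count for valinomycin was 3, namely NYC1, PPH and PAO. Among all 18048 tested genes the count higher was then 5568 and 4767, against 6943 before. All 8 passed the filter, which asked for 1 FPKM or more on average, but SGR2 passed with 1.02 FPKM, and did so through the treated groups only.

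**Figure D1:**
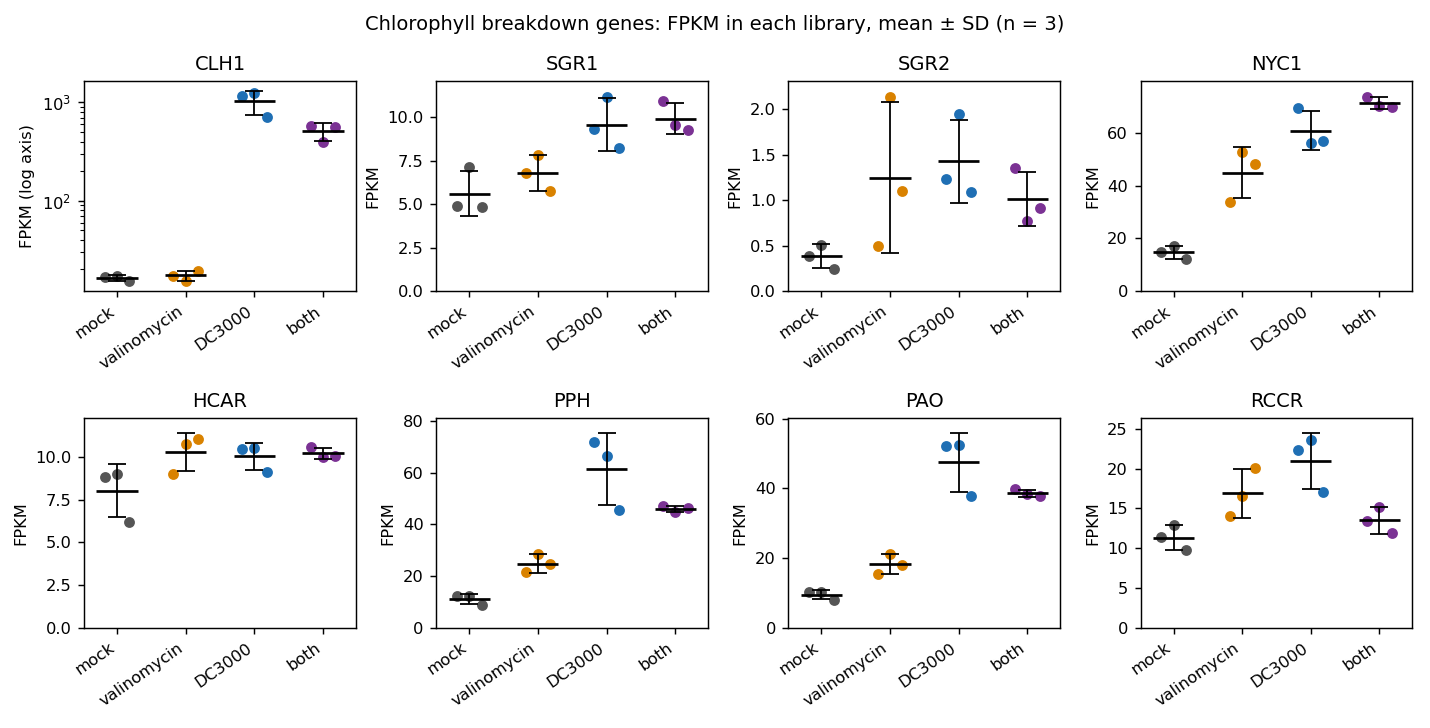
FPKM of the 8 genes (y axis, logarithmic for CLH1 only) in each library of the 4 groups (x axis), with the mean as a horizontal line and the SD as whiskers (n = 3). CLH1 stands at 15.1 to 19.5 FPKM in every mock and valinomycin library and at 392 FPKM or more in every library with DC3000, while HCAR stays between 6.22 and 11.05 FPKM throughout.

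CLH1 (AT1G19670, TAIR10.1 chromosome 1, 6803486 to 6805092, minus strand, 2 exons, 324 residues) changed most. Its 3 mock libraries stood at 16.8, 17.1 and 15.1 FPKM and its valinomycin libraries at 17.3, 15.3 and 19.5 FPKM. With DC3000 they stood at 1149.9, 1242 and 705 FPKM, and with both agents at 575, 392 and 568 FPKM. The libraries with DC3000 lie far above the others, and the ranges with and without valinomycin do not overlap among them. Against mock, DC3000 gave a log2 fold change of 5.86 ± 0.20 (limma adjusted p = 5.16e-11), a ratio of means of 63.2. Both agents gave 4.87 ± 0.20 (limma adjusted p = 2.76e-10), a ratio of 31.3. Valinomycin alone gave 0.08 ± 0.20 (limma adjusted p = 0.763), with a 95% interval of -0.36 to 0.52, and the value was -0.23 after median-of-ratios rescaling. Adding valinomycin to DC3000 lowered CLH1 by a log2 change of -0.99 ± 0.20 (limma adjusted p = 0.00294), so that the mean with DC3000 alone was 2.02 times that with both. By FPKM, CLH1 ranked 4420 to 5042 among the 20233 genes in mock, 88 to 140 with DC3000 and 145 to 229 with both. Its paralog CLH2, named here outside the naming rule, stayed below the filter at 0.230 ± 0.151 FPKM for mock, 0.623 ± 0.217 for valinomycin, 0.733 ± 0.177 for DC3000 and 0.665 ± 0.141 for the pair of agents (mean ± SD, n = 3).

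Of the enzymes that turn chlorophyll b into chlorophyll a, NYC1 rose in all 3 treated groups, while HCAR had smaller positive differences that were not called. NYC1 (AT4G13250; chromosome 4, 7684156 to 7687006, minus strand), the chlorophyll b reductase, stood at 14.9, 17.05 and 12.1 FPKM in mock. With valinomycin it stood at 34.0, 52.6 and 48.1 FPKM, with DC3000 at 69.3, 56.2 and 57.0 FPKM, and with both at 73.8, 70.4 and 69.98 FPKM. The 4 groups follow each other in that order without any overlap. NYC1 rose by 1.54 ± 0.17 with valinomycin (limma adjusted p = 5.62e-06), 1.99 ± 0.17 with DC3000 (limma adjusted p = 3.39e-07) and 2.22 ± 0.17 with both (limma adjusted p = 8.61e-08). Between neighbours in the order, the difference of DC3000 and valinomycin was not called (limma adjusted p = 0.0706), nor was that of both and DC3000 (limma adjusted p = 0.332). NYC1 was higher with both than with valinomycin by 0.68 ± 0.17 (limma adjusted p = 0.0165), a call lost without valinomycin replicate 1 or replicate 1 of both (limma adjusted p = 0.0553 and 0.0598).

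HCAR (AT1G04620, chromosome 1, 1282163 to 1286619, minus strand, 19 exons), the reductase of the second step, stood at 8.84, 9.02 and 6.22 FPKM in mock and 9.003, 10.8 and 11.05 FPKM with valinomycin. With DC3000 it stood at 10.5, 10.5 and 9.12 FPKM, and with both at 10.6, 9.99 and 10.03 FPKM. The treated groups overlap each other, mock replicate 3 is the lowest library, and mock replicate 2 just reaches into the valinomycin range. Its log2 change against mock was 0.33 ± 0.15 with valinomycin, 0.30 ± 0.15 with DC3000 and 0.33 ± 0.15 with both, none called (limma adjusted p = 0.0829, 0.116 and 0.0789). The 95% intervals reach 0.66, 0.63 and 0.66. Without mock replicate 2 the values for valinomycin and for both passed the threshold (limma adjusted p = 0.0486 and 0.046). The ratio of NYC1 to HCAR in FPKM was 1.84 ± 0.133 for mock, 4.34 ± 0.554 for valinomycin, 6.07 ± 0.668 for DC3000 and 6.997 ± 0.0429 for the pair of agents (mean ± SD, n = 3).

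The magnesium-removing proteins SGR1 and SGR2 had the lowest mean FPKM of the 8 genes in every group. SGR1 (AT4G22920; chromosome 4, 12016420 to 12018643, minus strand), also called NYE1, stood at 4.88, 7.10 and 4.82 FPKM in mock and 6.78, 7.82 and 5.74 FPKM with valinomycin. With DC3000 it stood at 9.32, 11.2 and 8.21 FPKM, and with both at 10.9, 9.54 and 9.27 FPKM. The first pair of groups overlap, as do the second pair, and there is no overlap between the pairs. SGR1 rose by 0.69 ± 0.17 with DC3000 (limma adjusted p = 0.00426) and by 0.74 ± 0.17 with both (limma adjusted p = 0.00189). Valinomycin alone gave 0.25 ± 0.17 (limma adjusted p = 0.243), a value that turned to -0.03 after median-of-ratios rescaling. SGR1 was 0.49 ± 0.17 higher with both than with valinomycin and was not called (limma adjusted p = 0.0675), but it was after rescaling (limma adjusted p = 0.00924).

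SGR2 (AT4G11910; chromosome 4, 7156150 to 7158047, plus strand), its paralog with 81.3% nucleotide identity over 627 aligned bases, was near the filter. It stood at 0.388, 0.508 and 0.245 FPKM in mock and 0.501, 2.14 and 1.10 FPKM with valinomycin. With DC3000 it stood at 1.24, 1.95 and 1.09 FPKM, and with both at 1.35, 0.776 and 0.913 FPKM. Mock is lowest, yet valinomycin replicate 1 falls inside the mock range. SGR2 rose by 0.80 ± 0.24 with DC3000 (limma adjusted p = 0.0115) and by 0.64 ± 0.24 with valinomycin (limma adjusted p = 0.0333), and with both it was 0.54 ± 0.24 above mock without a call (limma adjusted p = 0.0612). The ratios of means were 3.75, 3.28 and 2.66 in that order, larger than the log2 values show because SGR2 is low against the pseudocount of 1. With a pseudocount of 0.1 the log2 changes were 1.67, 1.33 and 1.22, all called (limma adjusted p = 0.00641, 0.0216 and 0.0279). At the pseudocount of 1 the calls varied with the libraries. The DC3000 call was lost without DC3000 replicate 2 (limma adjusted p = 0.0576). The valinomycin call was lost without mock replicate 1, mock replicate 3 or valinomycin replicate 2 (limma adjusted p = 0.0676, 0.109 and 0.188) and after median-of-ratios rescaling (limma adjusted p = 0.0585). The value for both was called without valinomycin replicate 1 or 2 (limma adjusted p = 0.0288 and 0.0286) and in a fit of the compared groups only (limma adjusted p = 0.0146).

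PPH and PAO, enzymes of consecutive steps, had nearly the same profile. PPH (AT5G13800; chromosome 5, 4451733 to 4454813, minus strand), the pheophytinase that removes phytol, stood at 12.1, 12.3 and 8.91 FPKM in mock and 21.5, 28.5 and 24.6 FPKM with valinomycin. With DC3000 it stood at 71.98, 66.6 and 45.6 FPKM, and with both at 47.05, 44.8 and 46.4 FPKM. Mock, valinomycin and the bacterial groups are separate, while the pair with DC3000 overlap through DC3000 replicate 3. PPH rose by 1.10 ± 0.18 with valinomycin (limma adjusted p = 0.000164), 2.35 ± 0.18 with DC3000 (limma adjusted p = 9.96e-08) and 1.97 ± 0.18 with both (limma adjusted p = 4.15e-07). In ratios of means these are 2.24, 5.53 and 4.15.

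PAO (AT3G44880; chromosome 3, 16383595 to 16386344, plus strand), the ring-opening oxygenase, stood at 10.2, 10.3 and 7.87 FPKM in mock and 15.4, 21.3 and 17.9 FPKM with valinomycin. With DC3000 it stood at 52.2, 52.3 and 37.8 FPKM, and with both at 39.7, 38.4 and 37.6 FPKM. The order and the overlap are those of PPH. PAO rose by 0.87 ± 0.16 with valinomycin (limma adjusted p = 0.000553), 2.20 ± 0.16 with DC3000 (limma adjusted p = 8.25e-08) and 1.93 ± 0.16 with both (limma adjusted p = 2.34e-07). Over the 12 libraries the log2 values of PPH and PAO had a Pearson correlation of 0.995, and the ratio of their FPKM stayed between 1.13 and 1.39 in each library. By group the ratio was 1.17 ± 0.0308 for mock, 1.37 ± 0.0274 for valinomycin, 1.29 ± 0.0868 for DC3000 and 1.19 ± 0.0342 for the pair of agents. Its valinomycin values lie wholly above those of mock and of both.

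RCCR (AT4G37000; chromosome 4, 17442612 to 17444295, plus strand), which acts on the product of PAO, rose with each agent alone and was not called with both. It stood at 11.4, 12.9 and 9.74 FPKM in mock and 13.99, 16.6 and 20.1 FPKM with valinomycin. With DC3000 it stood at 22.3, 23.5 and 17.0 FPKM, and with both at 13.4, 15.2 and 11.9 FPKM. The group with both overlaps mock and lies wholly below DC3000. RCCR rose by 0.83 ± 0.17 with DC3000 (limma adjusted p = 0.00116) and by 0.53 ± 0.17 with valinomycin (limma adjusted p = 0.0186), and with both it was 0.23 ± 0.17 above mock without a call (limma adjusted p = 0.257). The valinomycin call was lost without mock replicate 3 or valinomycin replicate 3 (limma adjusted p = 0.0683 and 0.0742), and after median-of-ratios rescaling, where the value was 0.23 (limma adjusted p = 0.142). The difference of both from valinomycin was -0.30 ± 0.17 and was not called (limma adjusted p = 0.27). RCCR shares 167 exon bases with AT4G37010 on the same strand, so reads there may be split between them; that gene stood at 0.393 to 2.97 FPKM in mock and at most 6.45 in any library, and with both agents it was 0.59 ± 0.33 above DC3000 without a call (limma adjusted p = 0.2). The ratio of PAO to RCCR was 0.836 ± 0.0518 for mock, 1.09 ± 0.195 for valinomycin, 2.26 ± 0.0660 for DC3000 and 2.89 ± 0.324 for the pair of agents.

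**Figure D2:**
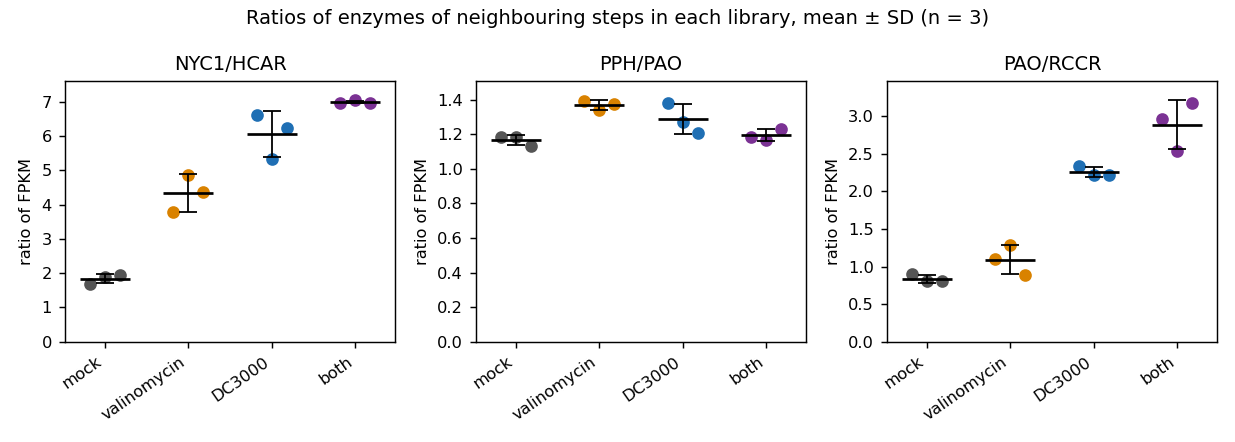
Ratios of FPKM (y axis) for NYC1 to HCAR, PPH to PAO and PAO to RCCR in each library of the 4 groups (x axis), with mean and SD (n = 3); the pairs were chosen with the values known. NYC1 to HCAR goes from 1.84 in mock to 6.997 with both agents and PAO to RCCR from 0.836 to 2.89. PPH to PAO stays between 1.13 and 1.39, with its highest mean, 1.37, for valinomycin.

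Setting the treatments side by side, adding valinomycin to DC3000 lowered 2 of the 8 genes, CLH1 and RCCR, and raised none, where 13.5% of all genes were called lower and 14.1% higher. Of all calls 51.2% were higher, and 63.1% after scaling to nuclear genes. RCCR fell by 0.59 on the log2 scale (SE 0.17, limma adjusted p = 0.0199), but the count was 1 without DC3000 replicate 1 or 2, or without replicate 1 or 3 of both, where its adjusted p reached 0.0878. PPH and PAO had changes of -0.38 ± 0.18 and -0.28 ± 0.16 that were not called (limma adjusted p = 0.128 and 0.23). Their 95% intervals run from -0.76 to 0.003 and from -0.63 to 0.08. PPH passed the threshold without DC3000 replicate 3, its lowest library in that group (limma adjusted p = 0.0233), and after median-of-ratios rescaling (limma adjusted p = 0.0388). The median of the 8 was -0.27, against -0.06 for all tested genes.

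Adding DC3000 to valinomycin raised 4 of 8 genes (CLH1, NYC1, PPH and PAO) and lowered none, where 4.72% of all genes were called higher and 10.4% lower, with a median of 0.59 against -0.12. CLH1 rose by 4.79 ± 0.20 (limma adjusted p = 6.27e-09), PAO by 1.05 ± 0.16 (limma adjusted p = 0.000847) and PPH by 0.87 ± 0.18 (limma adjusted p = 0.00523). Compared directly, valinomycin gave lower levels than DC3000 for 3 of 8 (CLH1, PPH and PAO), and higher levels for none, where 8.18% of all genes were called lower and 17.9% higher. The differences were -5.78 ± 0.20 for CLH1, -1.25 ± 0.18 for PPH and -1.33 ± 0.16 for PAO (limma adjusted p = 4.39e-10, 9.81e-05 and 2.89e-05). After median-of-ratios rescaling 6 of 8 were called lower, with SGR1, NYC1 and RCCR added (limma adjusted p = 0.00882, 0.00711 and 0.0362). The count lower among all 18048 tested genes went from 1477 to 2730 under the same rescaling. Rescaling also moved the share of higher calls among all genes, from 31.3% to 50.4% for both against valinomycin and from 68.6% to 54.5% for valinomycin against DC3000.

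**Figure D3:**
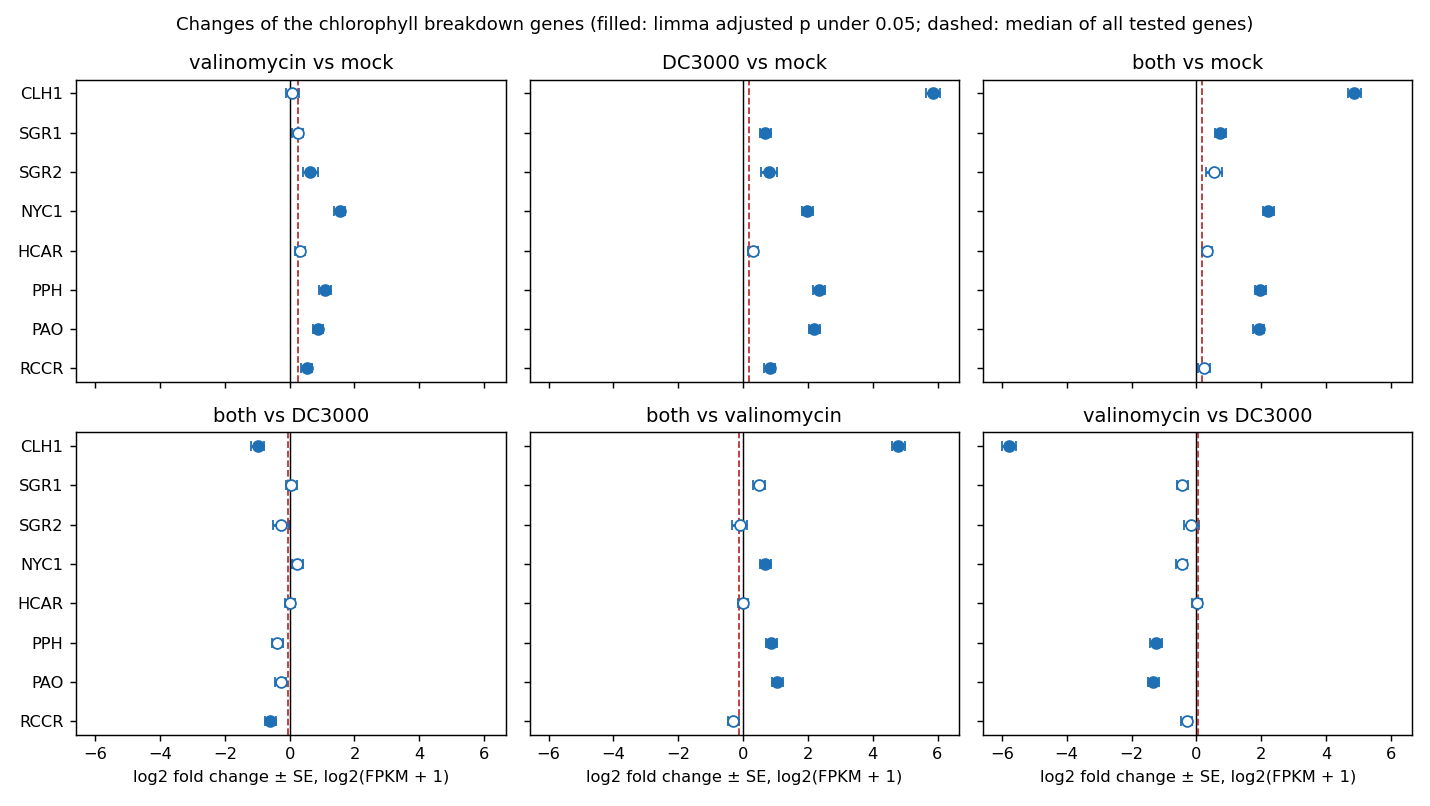
Log2 fold changes with SE (x axis, log2(FPKM + 1) scale) of the 8 genes (y axis) in 6 comparisons; filled points have a limma adjusted p under 0.05 and the dashed line is the median of all tested genes. CLH1 is near 0 with valinomycin (0.08) and at 5.86 with DC3000, NYC1, PPH and PAO are filled in all 3 comparisons with mock, and HCAR is open in every panel.

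The interaction asks whether the effect of valinomycin differed with and without DC3000. The mock libraries are shared by the single comparisons. The interaction was below 0 for all 8 genes (SGR1 not after median-of-ratios rescaling) and called for 5, CLH1, NYC1, PPH, PAO and RCCR, where 19.4% of all genes were called lower and 5.25% higher. PPH had an interaction of -1.48 ± 0.25 (limma adjusted p = 0.000958), NYC1 of -1.31 ± 0.24 (limma adjusted p = 0.00175) and PAO of -1.15 ± 0.23 (limma adjusted p = 0.00316). RCCR had -1.12 ± 0.24 (limma adjusted p = 0.00469) and CLH1 -1.07 ± 0.29 (limma adjusted p = 0.0159). For NYC1, the single changes of 1.54 and 1.99 add to 3.52, while the change with both was 2.22. For RCCR they add to 1.36, and the change with both was 0.23. The median interaction of all genes was -0.29, and relative to it PPH stood at -1.19 and CLH1 at -0.78. On that scale HCAR stood at -0.02 and SGR1 at 0.10, so a value below 0 does not set these genes apart from the median gene. The share of higher calls among all genes was 21.3%, 52.8% after median-of-ratios rescaling and 31.6% after scaling to nuclear genes. After median-of-ratios rescaling the CLH1 call was lost (limma adjusted p = 0.0595) and the value of SGR1 turned from -0.19 to 0.10.

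**Figure D4:**
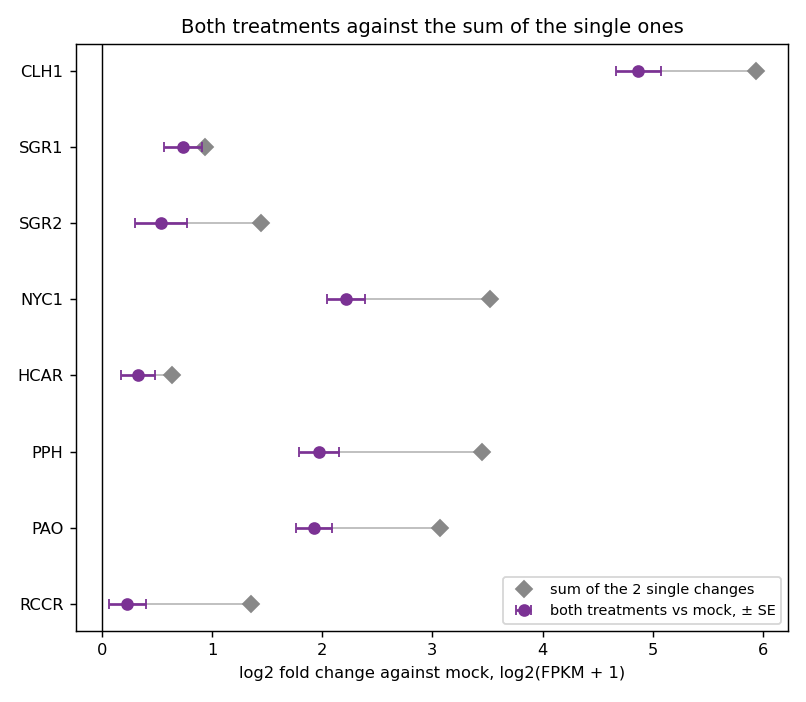
For each gene (y axis), the sum of the log2 changes of the 2 single treatments against mock (diamonds) and the change with both agents (circles, ± SE), on the log2(FPKM + 1) scale (x axis). The circle lies left of the diamond for all 8 genes (for SGR1 not after median-of-ratios rescaling), with the widest gap for PPH (3.45 and 1.97) and the narrowest for SGR1 (0.93 and 0.74). For all tested genes the median interaction was -0.29.

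Genes of the circadian clock moved with every comparison with mock. Of 12 tested, 7 were higher and 5 lower with valinomycin, and 7 were higher and 4 lower with DC3000 and with both. Among all tested genes 38.5%, 31.6% and 37.2% were called higher for valinomycin, DC3000 and both, and 13.8%, 17.2% and 23.1% lower. The morning gene LHY stood at 266 ± 52.9 FPKM for mock, 9.13 ± 7.23 for valinomycin, 1.305 ± 0.699 for DC3000 and 2.83 ± 1.05 for the pair of agents. The evening gene GI stood at 0.312 ± 0.0671, 21.4 ± 2.48, 17.3 ± 2.02 and 16.7 ± 1.61 FPKM in the same order. The part of this shift in the changes of NYC1, PPH and PAO against mock was not tested.

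The genes whose log2 values ran most like those of each of the 8 over the 12 libraries are given as a description; libraries of a group share their treatment. For CLH1 these were TSA1, ARGAH2 and AT1G54020, with Pearson correlations of 0.997, 0.997 and 0.996. ARGAH2, an arginase gene, stood at 32.5 FPKM for mock, 25.8 for valinomycin, 849.98 for DC3000 and 462 for the pair of agents (group means). For NYC1 the list held AT1G53890, PYD2 and CYP89A9 (0.990, 0.986 and 0.986). CYP89A9 encodes a cytochrome P450 that acts later in the same pathway, on chlorophyll catabolites. For PPH it held AT1G75370, PES1 and PAO itself (0.996, 0.996 and 0.995), and for PAO it held DHS1, PPH and ALDH10A8 (0.996, 0.995 and 0.994). PES1 makes fatty acid esters of the phytol set free in breakdown. SGR1, SGR2, RCCR and HCAR had their nearest profiles at 0.974, 0.954, 0.976 and 0.981. Among the 8, RCCR correlated with the others at 0.468 (CLH1) to 0.740 (SGR2), and HCAR at 0.410 (CLH1) to 0.785 (NYC1).

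Other genes of chlorophyll breakdown were called in both directions. Of 9 listed genes 8 were tested; with valinomycin 3 were higher and 2 lower than mock, with DC3000 2 and 2, and with both 3 and 2, with medians of 0.24, 0.04 and 0.37. Shares of 3 of 8 and 2 of 8 are near or below the 38.5%, 31.6% and 37.2% of all genes called higher. Of all genes 13.8%, 17.2% and 23.1% were called lower in the same order, and 2 of 8 is near the last of these. CYP89A9 stood at 3.21 ± 1.35 FPKM for mock, 22.8 ± 5.74 for valinomycin, 41.3 ± 10.2 for DC3000 and 43.9 ± 5.28 for the pair of agents, and rose in all 3 (log2 2.53, 3.36 and 3.47, each ± 0.25). ABCC3, a vacuolar transporter able to carry chlorophyll catabolites, stood at 8.05 ± 1.86 FPKM for mock, 123 ± 78.2 for valinomycin, 3.62 ± 0.720 for DC3000 and 78.6 ± 29.3 for the pair of agents. It was higher with valinomycin and with both (limma adjusted p = 8.84e-06 and 1.7e-05) and not called with DC3000 (limma adjusted p = 0.0677), and it was 4.06 ± 0.41 higher with both than with DC3000 (limma adjusted p = 1.84e-05). MES16, a methylesterase of late catabolites, rose by 1.19 ± 0.22 with DC3000 (limma adjusted p = 0.00052) and stood 0.40 ± 0.22 above mock with valinomycin without a call (limma adjusted p = 0.144). AT1G44000, to which the reference gives no name, fell from 119 ± 15.7 FPKM in mock to 32.7 ± 5.84, 36.3 ± 2.83 and 18.97 ± 0.106 FPKM in the 3 treated groups.

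Of 4 genes that handle the released phytol, 3 were higher with valinomycin, 2 with DC3000 and 2 with both, and none was lower against mock. Of all genes 38.5%, 31.6% and 37.2% were called higher and 13.8%, 17.2% and 23.1% lower. The count for valinomycin was 2 under either rescaling, and 1 gene was lower with both after median-of-ratios rescaling. The 2 phytyl ester synthases had the largest changes. PES1 rose by 1.26 ± 0.18, 2.82 ± 0.18 and 2.28 ± 0.18 in the same order (limma adjusted p = 6.11e-05, 2.04e-08 and 1.29e-07). PES2 rose by 0.98 ± 0.20, 2.37 ± 0.20 and 2.65 ± 0.20 (limma adjusted p = 0.00107, 2.85e-07 and 7.19e-08). PES1 was also lower with both than with DC3000 by -0.54 ± 0.18 (limma adjusted p = 0.0406), a call lost after scaling to nuclear genes, and its interaction was -1.81 ± 0.26 (limma adjusted p = 0.000238).

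Transcription factors known to act on chlorophyll breakdown were mostly higher in all treated groups. Of 20 listed, 19 were tested; 14 were higher and 1 lower with valinomycin, 14 and 2 with DC3000, and 13 and 2 with both. Among all tested genes 38.5%, 31.6% and 37.2% were called higher in the same order, and 13.8%, 17.2% and 23.1% lower. The medians of the regulators were 1.09, 1.04 and 1.42, against 0.27, 0.18 and 0.17 for all genes. The list was not split into activators and repressors, so these counts give no direction for the pathway. MYC4 was lower in all 3 treated groups, by -1.01, -0.57 and -0.82, each ± 0.21 (limma adjusted p = 0.00101, 0.0334 and 0.00321). PIF5 was also lower with DC3000, and ABF2 with both. ANAC019, a stress-induced NAC factor, stood at 0.655 ± 0.341 FPKM for mock, 19.2 ± 11.9 for valinomycin, 130.1 ± 35.4 for DC3000 and 90.4 ± 5.24 for the pair of agents. ANAC055 and ANAC072, of the same group, rose with DC3000 by 4.69 ± 0.30 and 4.16 ± 0.27 and with valinomycin by 2.72 ± 0.30 and 1.44 ± 0.27 (limma adjusted p = 1.91e-08, 1.97e-08, 5.47e-06 and 0.000521). MYC2, the main jasmonate-responsive activator, rose from 7.69 ± 0.801 to 148 ± 40.1 FPKM with DC3000 and to 20.4 ± 6.34 with valinomycin. All 4 were lower with valinomycin than with DC3000 (limma adjusted p = 6.39e-05, 0.000185, 4.17e-06 and 5.46e-07), and none of the 4 was called between both agents and DC3000 (limma adjusted p = 0.387, 0.308, 0.259 and 0.468). ANAC092 (ORE1), a senescence regulator, stood at 0.813 ± 0.428 FPKM for mock, 10.6 ± 2.58 for valinomycin, 14.7 ± 2.03 for DC3000 and 20.2 ± 2.70 for the pair of agents.

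**Figure D5:**
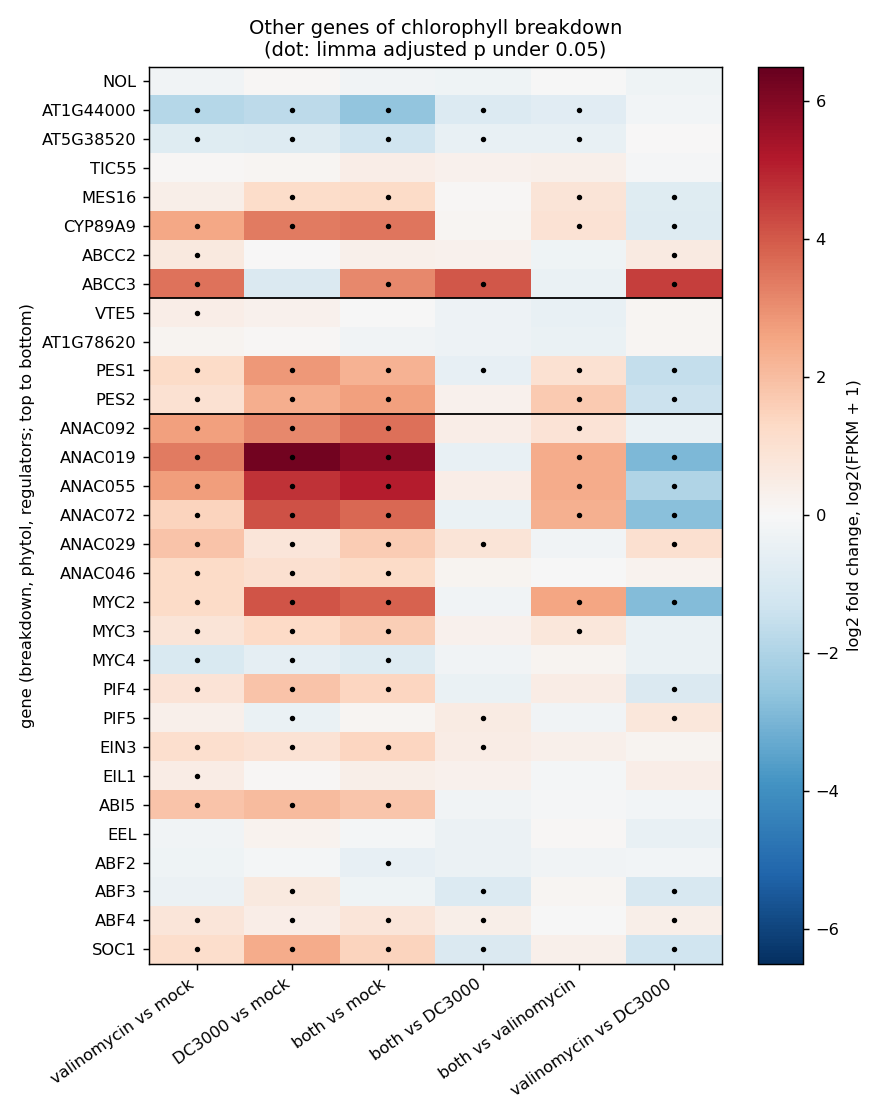
Log2 fold changes (colour, log2(FPKM + 1) scale) of the tested genes of 3 lists (y axis: other breakdown genes, phytol handling, regulators) in 6 comparisons (x axis), with a dot where the limma adjusted p is under 0.05. ANAC019, ANAC055, ANAC072 and MYC2 are darkest with DC3000 and with both, and ABCC3 is high against mock with valinomycin (3.53) and with both (3.10).

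Most markers of leaf senescence were higher with valinomycin and with both, and most genes of chlorophyll synthesis were lower in all 3 treated groups. Of 11 senescence markers 8 were tested; valinomycin raised 7 above mock, DC3000 raised 4 and the pair of agents raised 7, where 38.5%, 31.6% and 37.2% of all genes were called higher. With DC3000, SAG101 and WRKY53 stood at -0.49 ± 0.21 and -0.34 ± 0.24 against mock without a call (limma adjusted p = 0.0622 and 0.251), and after median-of-ratios rescaling 3 markers were higher and 1 lower. Of these markers 7 were higher and 1 lower with both than with DC3000, where 14.1% of all genes were called higher and 13.5% lower. In that comparison CLH1 and RCCR were lower. DIN1, a dark-induced gene also named SEN1, stood at 21.8 ± 4.53 FPKM for mock, 526 ± 155 for valinomycin, 228 ± 144 for DC3000 and 830.5 ± 155 for the pair of agents. In the magnesium branch of chlorophyll synthesis 12 of 13 genes were tested, and 11 were lower with valinomycin, 10 with DC3000 and 11 with both, with 1 higher in each, where 13.8%, 17.2% and 23.1% of all genes were called lower. CAO, which makes the chlorophyll b that NYC1 removes, fell from 124 ± 25.6 FPKM in mock to 47.9 ± 8.65, 48.0 ± 4.59 and 35.7 ± 5.44 in the same order. PORB, a light-dependent protochlorophyllide reductase, was the gene that rose, from 111 ± 18.04 FPKM to 420 ± 131 with valinomycin, 401 ± 42.9 with DC3000 and 262 ± 41.8 with both. No gene of these lists that was called changed sign under either rescaling, though some calls were lost and others gained. In the synthesis list, called positive interactions went from 2 to 8 after median-of-ratios rescaling. Among all tested genes that count went from 947 to 2476.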

How the data were processed

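Per the submitters' processing notes the genome build was TAIR10. The sources used here give no aligner, no quantifier and no read strand. The authors deposited 1 normalized value per gene and library with no unit; FPKM was inferred from the deposited values, which are not whole and sum to different library totals. Low values times transcript length showed no clear whole-read steps (regularity at most 0.125 on a scale from 0 to 1), so the depth is unknown and no counts were used. Values were analysed as log2(FPKM + 1) for the 18048 genes averaging 1 FPKM or more across the 12 libraries. A single limma 3.58.1 model under R 4.3.3 held all 4 groups, with 8 residual degrees of freedom, empirical Bayes moderation with a trend, and Benjamini-Hochberg adjustment over all tested genes. It was tested on simulated data. Having 3 libraries a group limits the precision.

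The 8 members and the gene lists were chosen with earlier results of these data known. Named genes are all 8 members, the 3 genes most correlated with each, up to 4 called genes with the largest change per list and comparison, regulators, and LHY, CCA1, TOC1 and GI. Gene models and upstream sequences come from RefSeq TAIR10.1, matched by locus tag for 8 of 8; the upstream window of HCAR is not reported here. No member had a near-identical copy, taken as 95% identity or more across 50% or more of its transcript. The planned protein comparison was not run. Alternatives were another pseudocount, no filter, 2 rescalings, a fit of the compared groups only, a replicate block, and each library left out in turn.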

Additional observations from a re-analysis of the deposited data

Results flagged for a closer look

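For 5 genes the effect of valinomycin differed between seedlings with and without DC3000, by the interaction term of the limma model. The difference in log2 effect was -1.07 for CLH1, -1.31 for NYC1, -1.48 for PPH, -1.15 for PAO and -1.12 for RCCR (limma adjusted p = 0.0159, 0.00175, 0.000958, 0.00316 and 0.00469). Among all tested genes 19.4% were called lower and 5.25% higher by this term, and the median was -0.29. The CLH1 call was lost after median-of-ratios rescaling (limma adjusted p = 0.0595).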

How the results depend on the processing

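Of 1000 alternative values for the 8 genes in 7 comparisons, 948 kept their direction and their side of the threshold, 15 lost a call, 18 gained one and 19 changed sign. After median-of-ratios rescaling, which uses size factors of 0.735 (mock replicate 3) to 1.14, the count of genes higher with valinomycin was 3 instead of 5 and the count lower with valinomycin than with DC3000 was 6 instead of 3. Among all tested genes these counts were 4767 instead of 6943 and 2730 instead of 1477. Under this rescaling, valinomycin against mock turned to -0.23 for CLH1 and -0.030 for SGR1, both against valinomycin to 0.090 for HCAR, valinomycin against DC3000 to -0.048 for HCAR, and the interaction to 0.10 for SGR1. The cause was not tested. With 1 library left out at a time, the genes higher against mock numbered 3 to 6 with valinomycin, 6 to 7 with DC3000 and 5 to 6 with both. Among all 18048 tested genes these counts ran from 5497 to 7443, 4518 to 6202 and 5679 to 7063 in the same order. Those lower with both than with DC3000 numbered 1 to 3, and those higher with both than with valinomycin 3 to 5. Those lower with valinomycin than with DC3000 numbered 3 to 4, and those with a called negative interaction 5 to 6. Among all tested genes these 4 counts ran from 1235 to 2831, 549 to 947, 977 to 1679 and 2341 to 4118. Values near 0 changed sign in the same runs: valinomycin against mock ran from -0.0024 to 0.16 for CLH1. Both against DC3000 ran from -0.043 to 0.16 for SGR1 and from -0.037 to 0.057 for HCAR. Both against valinomycin ran from -0.36 to 0.17 for SGR2 and from -0.089 to 0.045 for HCAR, and valinomycin against DC3000 from -0.43 to 0.10 for SGR2 and from -0.032 to 0.11 for HCAR.

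Pairing of the libraries by replicate number was not apparent. Of 18 pairs with the same number 3 had a correlation of deviations over 0.1, and 3 of 12 libraries correlated best with their own number. Correlations ran from -0.242 to 0.439 with the same number and from -0.493 to 0.488 with different numbers. With 3 libraries a group, such a check cannot exclude a shared batch. With a replicate block the counts were 5, 7 and 5 higher against mock and 2 lower with both than with DC3000. They were 5 higher with both than with valinomycin and 4 lower with valinomycin than with DC3000, where SGR1 was the gene added. Among all tested genes the counts with the block were 7217, 5986, 6895, 2456, 1018 and 1566 in the same order. The interaction could not be fitted on the compared groups only, since it uses all 4. The depth of the libraries is unknown, so counting error is not separated from the spread.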
